A study of Mus musculus with 8 samples.

Results

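The interferon regulatory factors (IRFs) are a family of transcription factors that share a DNA-binding domain and bind elements built around GAAA. The 8 genes described here are Irf1, Irf2, Irf3, Irf4, Irf5, Irf7, Irf8 and Irf9, chosen by symbol from 52459 listed genes, and all 8 were among the 15419 genes tested, which averaged 10 normalized counts or more. The members have different roles. IRF3, IRF5 and IRF7 are held in the cytoplasm until kinases downstream of nucleic acid sensors phosphorylate them, IRF9 joins STAT2 in the ISGF3 complex that acts downstream of the type I interferon receptor, IRF1 and IRF2 bind overlapping elements as activator and antagonist, and IRF4 and IRF8 are lymphoid and myeloid factors that bind mostly with partners such as PU.1 and the BATF-JUN heterodimer. In T cells, Irf4 is induced by antigen receptor signals and, with Batf and Prdm1 (Blimp-1), is known for effector Treg cell differentiation.

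RNA was sequenced from Treg cells of C57BL/6 mice, labelled Foxp3+CD25+ and sorted as CD4+CD25hi, in 8 libraries that form 4 groups of 2 by genotype and stimulation. Genotype was read from a Cre reporter: YFPcre- cells are WT, and YFPcre+ cells, whose label joins Stim1 fl/f and Stim2 fl/fll with Foxp3-YFPcre, are called Stim1/2-deficient here. Both came from pooled spleen and lymph nodes of healthy female heterozygous mice, in which the Foxp3 promoter drives Cre in a fraction of Treg cells, so that genotype and the Foxp3-YFPcre allele cannot be told apart. STIM1 and STIM2 are the calcium sensors of the endoplasmic reticulum that open CRAC channels for store-operated calcium entry. Cells were unstimulated (WT replicates 3 and 4, Stim1/2-deficient replicates 1 and 2) or kept for 16 h on 1 µg/ml plate-bound anti-CD3/CD28 (replicates 1 and 2 of each genotype), and the numbers of mice and ages are not used here.

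Between 11851853 and 16306540 reads fell on genes in each library, and a single read was worth 0.759 to 1.48 of the deposited units, called normalized counts here (read counts divided by a size factor of the library). The lowest member value rested on 35 reads, for Irf5, and the highest on 16675, for Irf4. Unstimulated libraries were run on lane 4 and stimulated libraries on lane 1, so that stimulation and lane cannot be told apart, whereas both genotypes lie within each lane. Gene-level counts of Stim1 and Stim2 were no lower in Stim1/2-deficient libraries by the test (log2 differences of -0.15 to 0.44, none called), and such counts do not separate the deleted exons, so that they do not check the labels. Of 14 T and Treg cell markers none was at 0 in any library, and their sum was 111456 and 102649.9 normalized counts in unstimulated WT against 54074 and 61161 in unstimulated Stim1/2-deficient libraries, and 109836 and 130029.6 against 81752 and 103671 after stimulation. The 16 macrophage and monocyte markers summed to 12349 and 1969 normalized counts in unstimulated Stim1/2-deficient replicates 1 and 2, against 288 to 539.6 in the other 6 libraries. The 14 B cell markers summed to 17275 in that replicate 1 against 2674 to 7035 elsewhere, mostly from Ighm (11092 there and 2147 to 6446 elsewhere). Ms4a1 and Pax5, for example, had 699 and 590 in that replicate 1, and 148 and 110 in replicate 2. In stimulated replicate 1 they had 263 and 199 in WT and 312 and 296 in Stim1/2-deficient libraries. Elsewhere they had 14.4 to 61.6. By mean log2 value, all 14 were higher in Stim1/2-deficient than WT cells when unstimulated, and 11 after stimulation. In bulk RNA, fewer cells with a transcript and less transcript per cell cannot be told apart.

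The sequences just upstream of 3 members are shown because these members moved most in the comparisons: Irf4 and Irf8, which rose together with stimulation, and Irf7, whose level fell with stimulation in WT cells. They are from RefSeq on GRCm38.p6, read 5′ to 3′ in the direction of the gene, and end at the base before its start, for Irf4 at chr13:30748983-30749232 (plus strand), for Irf8 at chr8:120736108-120736357 (plus strand, the outermost of 2 starts) and for Irf7 at chr7:141266500-141266674 (minus strand). Capitals mark matches to TTCNNNGAA, the interferon-gamma activated site (GAS).
Irf4: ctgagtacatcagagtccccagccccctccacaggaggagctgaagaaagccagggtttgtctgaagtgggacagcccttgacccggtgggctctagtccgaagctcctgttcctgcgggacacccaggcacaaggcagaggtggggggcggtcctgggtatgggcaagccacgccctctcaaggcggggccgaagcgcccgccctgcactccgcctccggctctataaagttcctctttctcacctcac
Irf8: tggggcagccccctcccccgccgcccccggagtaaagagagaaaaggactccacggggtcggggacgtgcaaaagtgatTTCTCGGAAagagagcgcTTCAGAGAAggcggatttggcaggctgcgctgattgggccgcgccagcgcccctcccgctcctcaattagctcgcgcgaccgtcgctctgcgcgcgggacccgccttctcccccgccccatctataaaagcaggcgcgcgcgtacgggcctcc
Irf7: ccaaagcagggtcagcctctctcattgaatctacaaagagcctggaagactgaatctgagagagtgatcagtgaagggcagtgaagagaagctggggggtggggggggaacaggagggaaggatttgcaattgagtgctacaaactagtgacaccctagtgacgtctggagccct

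Each motif was searched on both strands of the 7 members with bases upstream of the annotated gene (250 bases each, 175 for Irf7, none for Irf5, whose window lies inside its gene). GAS matches stood in 3 of 7 members, 2 of them in Irf8 (171 to 163 and 153 to 145 bases before its start) and once each in Irf1 and Irf2, while 7.02% of 32841 mouse promoter windows held one. The interferon-stimulated response element (GAAA, any 2 bases, GAAA) was found in Irf2 alone and in 2.98% of all windows. The NFAT core GGAAA, which overlaps a GAS in Irf1, Irf2 and Irf8, stood in 5 of 7 members and in 55.6% of all windows. No member held the AP-1 site TGANTCA, present in 6.75% of windows. The windows printed for Irf4 and Irf7 held none of the 4 motifs. These matches are descriptions of letters in short windows, and nothing about binding was measured.

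Irf4 had the highest level per kilobase of exon of the 8 members in 6 libraries and lost that place in unstimulated Stim1/2-deficient cells. The lengths are unions of all annotated exons (3976 bases for Irf1 and 2484 for Irf2), which can exceed the transcripts present. The ranks and shares depend on these lengths, and other lengths were not tested. Per kilobase of exon (union of GENCODE vM1 exons, 4715 bases for Irf4), its level in unstimulated WT cells was 747 ± 6.73 normalized counts per kb (SD, n = 2), followed by Irf2 at 695 ± 7.10 and Irf1 at 647 ± 50.1, whose ranges overlapped neither Irf4 nor each other. Irf9 (179.7 ± 20.7), Irf3 (121 ± 20.5) and Irf7 (109.8 ± 14.3) formed a lower tier in which Irf3 and Irf7 overlapped. Irf8 (35.3 ± 2.85) and Irf5 (30.8 ± 3.24) were lowest and did not overlap. In unstimulated Stim1/2-deficient cells Irf2 (571.5 to 967) and Irf1 (449 to 966) overlapped each other and lay above all others, and Irf4 (183 to 218) overlapped Irf9 (157 to 226), the next. In stimulated WT cells Irf4 (2432 to 2732) was followed by Irf1 (490.2 to 569) and Irf2 (479 to 529.9), which overlapped, and then by Irf8 (359 to 380.1). The order of these 4 members was the same in stimulated Stim1/2-deficient cells, with Irf4 at 1426 to 2808, Irf1 at 906 to 1162, Irf2 at 764 to 1001 and Irf8 at 236 to 378. Irf4 made up 28.4% and 29.8% of the summed family level per kb in the 2 unstimulated WT libraries and 8.33% and 9.31% in the 2 unstimulated Stim1/2-deficient libraries. After stimulation its share was 61.0% and 58.2% in WT libraries, and 53.0% and 32.3% in Stim1/2-deficient libraries, where the 2 replicates stood apart.

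**Figure D1:**
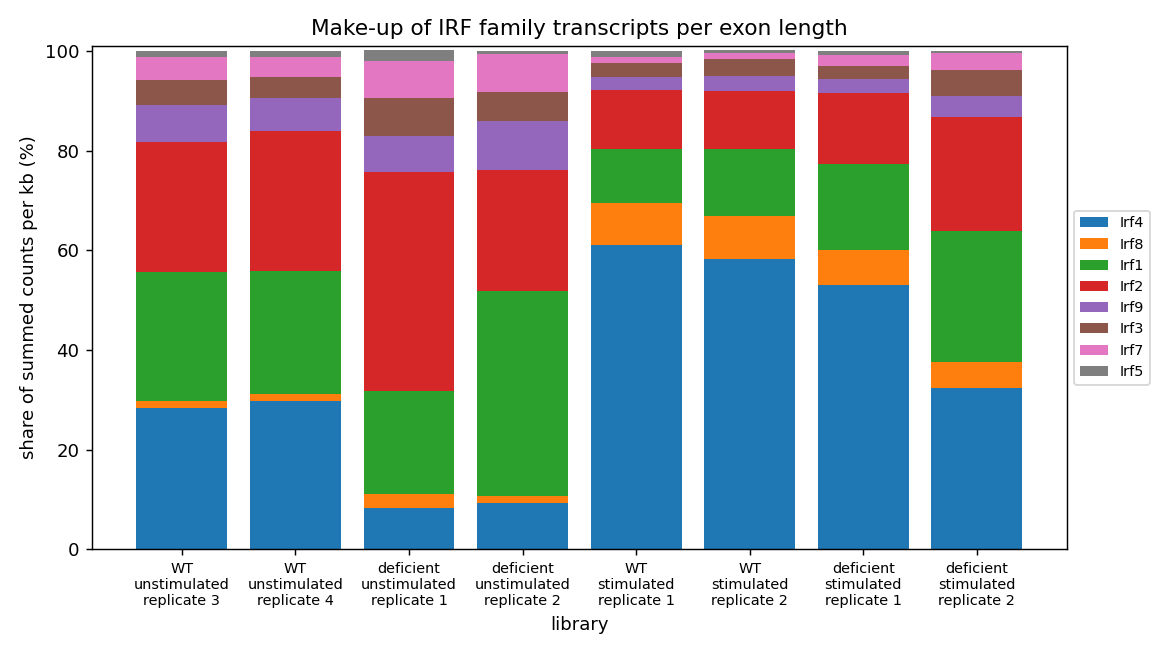
Share of each IRF family member in the summed normalized counts per kilobase of exon (y axis, %), by library (x axis), with 1 stacked bar per library and no averaging. The Irf4 share is 28.4% and 29.8% in unstimulated WT, 8.33% and 9.31% in unstimulated Stim1/2-deficient, and 32.3% to 61.0% in the 4 stimulated libraries.

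The genotype comparison in unstimulated cells asks which IRF transcripts depend on STIM1 and STIM2 in Treg cells as isolated. Irf4 stood at 3543 and 3498 normalized counts in WT libraries, against 862 and 1029.7 in Stim1/2-deficient ones. Both Stim1/2-deficient libraries were far below both WT libraries, and the spread within each genotype was small against the gap. The decrease was 3.73-fold, a log2 fold change of -1.90 (SE 0.27, 95% interval -2.51 to -1.29, limma adjusted p = 0.00880). Irf4 was the 1 member of 8 called lower, where 3.35% of all tested genes were, and no member was called higher, where 1.38% of all genes were. Without Stim1/2-deficient replicate 1, the library with the most macrophage transcripts, the log2 fold change was -1.77. Leaving out WT replicate 3 or 4 kept it at -1.89 and -1.91, but limma's adjusted p rose to 0.161 and 0.0759. The sum of the T and Treg cell markers, given above, was likewise lower in both Stim1/2-deficient libraries. Within that sum, Ctla4 had 37403 and 35119 normalized counts in WT against 6338 and 17333 in Stim1/2-deficient libraries. Cd3e had 3424 and 3294 against 3042 and 3156, and Lck 2950 and 2409 against 2722 and 2363. Foxp3 had 10001 and 8159 normalized counts in WT against 4947 and 4258 in Stim1/2-deficient libraries, and Il2ra 11360 and 10408 against 7021 and 6821. Neither was called (log2 differences -0.98 and -0.65). All 14 markers had log2 differences below 0, with a median of -0.51, and 4 were called lower, where 3.35% of all tested genes were. The part of these markers in the Irf4 difference was not tested.

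Irf7, Irf3 and Irf9 did not pass the test in unstimulated cells. Irf7, the factor that amplifies type I interferon production, stood at 363 and 301 normalized counts in WT against 499 and 542 in Stim1/2-deficient libraries. Both Stim1/2-deficient values were above both WT values, with a log2 fold change of 0.65 (95% interval 0.11 to 1.20, limma adjusted p = 0.155). Irf3, the constitutively expressed partner of IRF7 in interferon induction, had 431 and 338 against 534 and 437 normalized counts, a small difference whose libraries did not overlap (log2 fold change 0.34, limma adjusted p = 0.513). Over all tested genes, 26.5% had both Stim1/2-deficient libraries above both WT libraries in this comparison, as Irf7 and Irf3 did, and 27.1% both below. Irf9 (1047 and 889 in WT, 846 and 1219 in Stim1/2-deficient) overlapped between genotypes, with a 95% interval of the log2 difference of -0.45 to 0.60.

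Irf1 and Irf2 varied between the 2 unstimulated Stim1/2-deficient libraries more than between genotypes. Irf1, an interferon-gamma-induced activator of antigen presentation genes, stood at 2713 and 2431 normalized counts in WT against 1786 and 3841 in Stim1/2-deficient replicates 1 and 2. Irf2, its antagonist at shared sites, had 1714 and 1739 in WT and 2402 and 1419.7 in Stim1/2-deficient replicates 1 and 2. The WT pairs lay between the Stim1/2-deficient values for both genes, in opposite order of the replicates, and the log2 fold changes were 0.03 and 0.10 with 95% intervals of -0.65 to 0.71 and -0.46 to 0.66.

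Irf8 and Irf5 are also transcribed in B cells and macrophages. Among unstimulated libraries they were highest in the library with the most of those cells' transcripts. Unstimulated WT libraries had 263 and 235 normalized counts of Irf8, against 438 and 214 in Stim1/2-deficient replicates 1 and 2, and Irf5 had 96.0 and 82.7 in WT and 129 and 46.7 in Stim1/2-deficient. For both genes replicate 1 was the highest and replicate 2 the lowest of the 4 unstimulated libraries, and the genotype differences did not pass the test (log2 fold changes 0.30 and -0.19, limma adjusted p = 0.646 and 0.888). The sums of macrophage markers were 12349 and 1969 in these replicates, those of B cell markers 17275 and 4644, and their part in Irf5 and Irf8 was not tested.

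**Figure D2:**
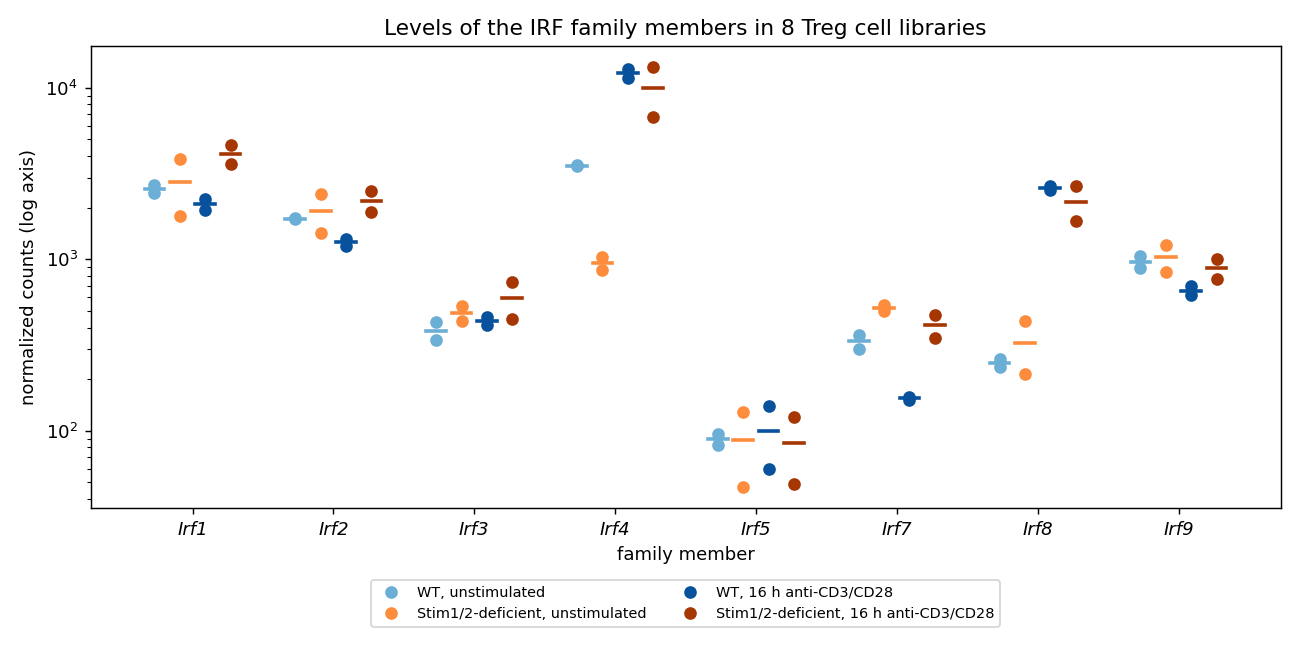
Normalized counts (log axis) of each IRF family member (x axis) in each library (points, n = 2 per group) with the group mean (bar), coloured by genotype and stimulation. Irf4 separates the unstimulated genotypes (3543 and 3498 against 862 and 1029.7), and Irf4 and Irf8 lie higher in all stimulated than in all unstimulated libraries.

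The same comparison after 16 h of anti-CD3/CD28 gave no called member, where 0.272% of all tested genes were called (0.110% lower and 0.162% higher). For Irf4 the WT libraries gave 12882 and 11469 normalized counts, against 13241 in Stim1/2-deficient replicate 1 and 6722 in replicate 2. Replicate 1 exceeded both WT libraries and replicate 2 was below both. The log2 fold change was -0.37 (SE 0.27, 95% interval -0.98 to 0.24, limma adjusted p = 0.617), it was 0.12 without replicate 2 and -0.85 without replicate 1 (limma adjusted p = 1 and 0.0596). The interval does not reach the decrease seen in unstimulated cells, but it rests on a spread pooled over all 4 groups, and the 2 replicates disagree on the direction. The interaction, given below, compares the 2 states directly and was not called by limma (adjusted p = 0.556).

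Irf7 had the member difference nearest to the threshold after stimulation. Its normalized counts were 158 and 151 in WT and 347 and 476 in Stim1/2-deficient libraries, which lay well above WT. The 2.62-fold difference (log2 fold change 1.39, SE 0.25, 95% interval 0.84 to 1.93) had a limma adjusted p = 0.0537 and was not called, and it was called by DESeq2 on recovered reads (adjusted p = 0.000305) but not by edgeR (adjusted p = 0.0673). Irf1 (1949 and 2262 in WT, 3603 and 4621 in Stim1/2-deficient) and Irf2 (1316 and 1191 in WT, 1898 and 2486 in Stim1/2-deficient) also had both Stim1/2-deficient libraries above both WT libraries. Their log2 fold changes were 0.96 and 0.79 with intervals above 0 (0.27 to 1.64 and 0.24 to 1.35), and neither passed the adjustment (limma adjusted p = 0.189 and 0.183). Over all tested genes, 24.3% had both Stim1/2-deficient libraries above both WT libraries in this comparison and 23.1% both below, and 4 of the 8 members were above (Irf1, Irf2, Irf7 and Irf9).

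The remaining members differed less after stimulation. Irf9 stood at 616 and 696 normalized counts in WT and 768 and 1008 in Stim1/2-deficient libraries (log2 fold change 0.43, limma adjusted p = 0.475). Irf3 had 414 and 458 against 448 and 734.5, overlapping between genotypes. Irf8 had 2682 and 2531 in WT and 2666 and 1667 in Stim1/2-deficient libraries, with replicate 2 the lower as for Irf4 (log2 fold change -0.31, 95% interval -1.04 to 0.43). Irf5 had 140.3 and 60.0 in WT and 119.9 and 49.0 in Stim1/2-deficient libraries, with replicate 1 the higher in both genotypes.

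**Figure D3:**
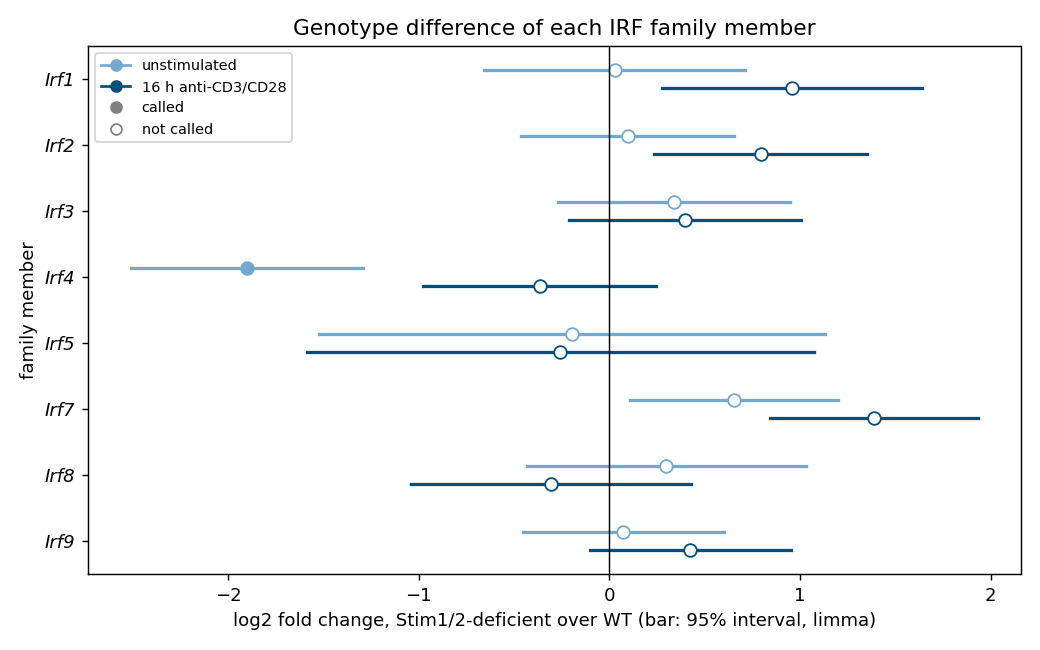
Log2 fold change of each IRF family member (y axis), Stim1/2-deficient over WT, in unstimulated and stimulated cells, with 95% intervals from limma (2 libraries per group) and filled points for called genes. The unstimulated Irf4 point at -1.90 is the 1 filled point, and the stimulated Irf7 point at 1.39 lies farthest to the right.

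An interaction term tested if genotype acted differently in the 2 states. For Irf4 the interaction was 1.54 on the log2 scale (SE 0.39, 95% interval 0.67 to 2.40), with a limma adjusted p = 0.556. DESeq2 gave 1.60 with an adjusted p = 0.0372 and edgeR 1.60 with an adjusted p = 0.548. The limma fit called 0 genes of 15419 (0%), with 1247 at an unadjusted p under 0.05 and more than 1.5-fold, and edgeR called 0 and DESeq2 47 genes. Interactions of the other members ran from -0.60 for Irf8 to 0.93 for Irf1, and none was called, but without unstimulated Stim1/2-deficient replicate 2 that of Irf1 was (1.48, limma adjusted p = 0.0314).

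The ratio of Irf4 to each other member compares Irf4 with its family within a library, free of scaling between libraries. In unstimulated cells it was lower in Stim1/2-deficient than in WT libraries against all 7 other members, by -1.71 (against Irf5) to -2.55 (against Irf7) on the log2 scale. After stimulation the differences ran from -0.06 against Irf8 to -1.75 against Irf7. Averaged over both states they were -2.15 against Irf7, -1.63 against Irf1, -1.58 against Irf2, -1.38 against Irf9, -1.13 against Irf8 and -0.91 against Irf5, with Irf3 between Irf2 and Irf9. In the exact two-sided permutation test within states, 36 arrangements allow no p below 0.0556, which was reached for Irf1, Irf2 and Irf7 (0.130 after adjustment over the 7 ratios).

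Stimulation asks which members follow antigen receptor and CD28 signals in each genotype. In WT cells Irf8 rose most and in Stim1/2-deficient cells Irf4 did. Irf8 in WT cells went from 263 and 235 to 2682 and 2531 normalized counts, a 10.4-fold increase (log2 fold change 3.38, SE 0.33, limma adjusted p = 0.000398), and in Stim1/2-deficient cells from 438 and 214 to 2666 and 1667, a 6.87-fold increase (log2 fold change 2.78, SE 0.33, limma adjusted p = 0.000675). Irf4 rose 3.45-fold in WT cells (log2 fold change 1.79, SE 0.27, limma adjusted p = 0.00255) and by 3.32 on the log2 scale in Stim1/2-deficient cells (SE 0.27, limma adjusted p = 0.000186), from the lower starting level given above. All 4 stimulated libraries were above all 4 unstimulated ones for both genes. Within a genotype, both stimulated libraries were above both unstimulated ones for 35.0% of all tested genes in WT and 30.8% in Stim1/2-deficient cells. Irf4 and Irf8 were the 2 members of 8 called higher in each genotype, where 10.2% of all genes were called higher in WT and 13.0% in Stim1/2-deficient cells. The comparisons share no library, but the lane stands with stimulation in both. In the unstimulated Stim1/2-deficient libraries the marker sums of B cells and macrophages move with Irf8 as given above, and with each Stim1/2-deficient library left out in turn the Irf8 increase ran from 2.26 to 3.30 on the log2 scale and stayed called.

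Irf7 was the member called lower with stimulation in WT cells, where 13.1% of all genes were, from 363 and 301 to 158 and 151 normalized counts. The libraries did not overlap, and its level fell 2.13-fold (log2 fold change -1.09, SE 0.25, limma adjusted p = 0.0119). In Stim1/2-deficient cells it went from 499 and 542 to 347 and 476 (log2 fold change -0.36, limma adjusted p = 0.310), and no member was called lower there, where 12.0% of all genes were. The WT decrease was -0.57 (limma adjusted p = 0.0987) with the libraries rescaled to equal totals, which moved the median of all genes up by 0.51 on the log2 scale. With any 1 of the 4 WT libraries left out it ran from -1.22 to -0.96 and was not called (limma adjusted p of 0.0572 to 0.0989). The difference between the genotypes in this response was not called (interaction 0.74, limma adjusted p = 0.624). Irf1, Irf2, Irf3, Irf5 and Irf9 passed the test in neither genotype, with log2 differences of -0.56 (Irf9) to 0.19 (Irf3) in WT and -0.21 (Irf9) to 0.64 (Irf1) in Stim1/2-deficient cells. The Irf1 value there ran from 0.0872 without unstimulated replicate 1 to 1.19 without replicate 2 (limma adjusted p = 0.773 and 0.00465), so that it was called in the second case, and Irf2 was called without replicate 1 (0.61, limma adjusted p = 0.0454).

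**Figure D4:**
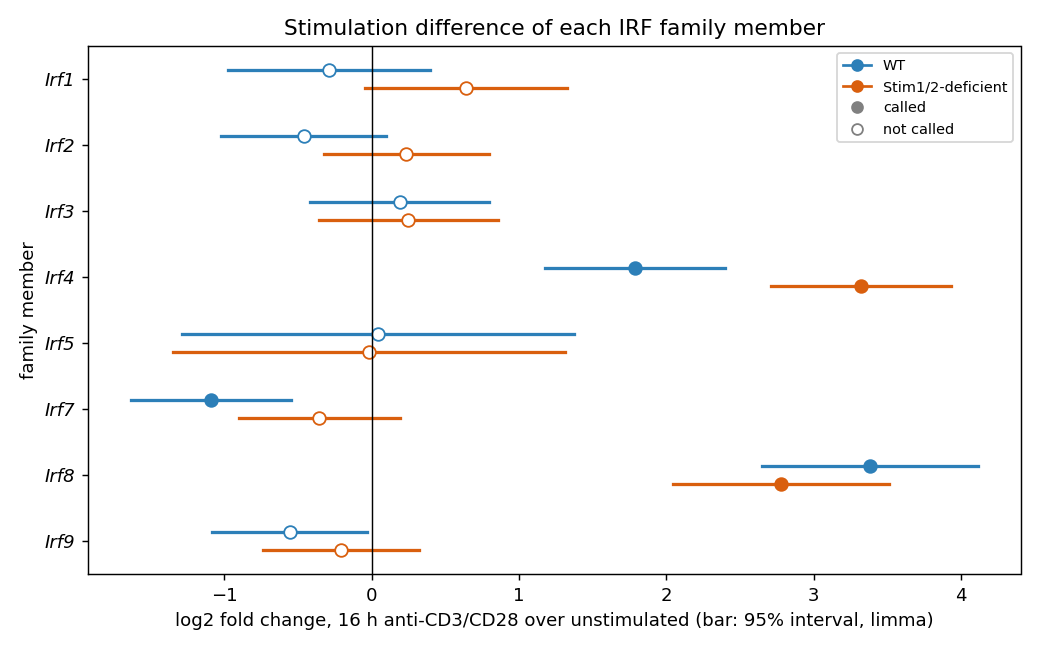
Log2 fold change of each IRF family member (y axis), stimulated over unstimulated, in WT and Stim1/2-deficient cells, with 95% intervals from limma (2 libraries per group) and filled points for called genes. Irf4 (1.79 and 3.32) and Irf8 (3.38 and 2.78) are filled on the right in both genotypes, and Irf7 (-1.09) on the left in WT.

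The genes that act with or upstream of the family were counted over lists, to be read against the 3.35% of all tested genes called lower and 1.38% called higher in unstimulated cells, and 0.110% and 0.162% in stimulated cells. The stimulated list calls given here were all lost without Stim1/2-deficient replicate 2 or without either WT library. Of 21 tested partners and inducers of IRF4, 2 were called lower and 0 higher in unstimulated Stim1/2-deficient cells (median log2 difference -0.24, against -0.01 over all tested genes). There 13 log2 differences were below 0 and 8 above, and after stimulation 9 and 12 (median 0.17). Spib and Spi1, which encodes PU.1, had the largest unstimulated differences and were not called. In WT they had 1.08 and 7.39, and 3.24 and 2.95 normalized counts. In Stim1/2-deficient replicates 1 and 2 they had 111 and 21.4, and 62.9 and 10.7. The part of macrophage and B cell transcripts in both was not tested. Batf, the AP-1 partner that IRF4 binds DNA with, had 881 and 734 normalized counts in WT and 224 and 162 in Stim1/2-deficient libraries, and 1379 and 1186 against 464 and 305 after stimulation. Its log2 fold changes were -2.07 and -1.76 (limma adjusted p = 0.00593 and 0.0392). With a library left out they ran from -2.31 to -1.84 and from -2.07 to -1.46, and the unstimulated call was lost without WT replicate 3 or 4 (limma adjusted p = 0.149 and 0.0563). Nfatc1, a calcineurin-dependent factor, was the other gene called (log2 fold change -0.80, limma adjusted p = 0.0480), named after its values were seen, and it was not called with any 1 of the 4 unstimulated libraries left out (limma adjusted p of 0.0524 to 0.380). Rel, the NF-kB subunit that induces Irf4, had 28959 and 32216 normalized counts in WT and 7622 and 18158 in Stim1/2-deficient libraries and was not called (log2 difference -1.38, limma adjusted p = 0.0549).

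Effector Treg cell genes linked to IRF4 were lower in unstimulated Stim1/2-deficient cells, as Irf4 was. Of 22 tested, 19 were called lower and 0 higher, with a median log2 difference of -2.62 against -0.01 over all genes. The median was -2.82 without Stim1/2-deficient replicate 1 and -2.67 without replicate 2. Fewer of them, and of all tested genes, were called without WT replicate 3 or 4. The list medians were then -2.51 and -2.73, with all 22 differences below 0 in each case. Most of the 22 genes are ones that the study picked from these libraries, so that their direction is not independent evidence. Il10 (interleukin-10) had 885 and 923 normalized counts in WT and 50.3 and 56.1 in Stim1/2-deficient libraries, and Il1rl1 (the IL-33 receptor ST2) 1694 and 1746 against 138 and 50.8. Prdm1 had 2050.4 and 1637 against 382 and 196 (log2 fold change -2.74, limma adjusted p = 0.00538). Without WT replicate 3 or 4 Il10 stayed called, and Il1rl1 and Prdm1 did not. After stimulation all 22 log2 differences were below 0, and 3 (Il10, Tnfrsf9 and Itgae, the last 2 named after their values were seen) were called lower and 0 higher (median -1.24). Without Stim1/2-deficient replicate 1 more genes of the list, and of all tested genes, were called. The list median was then -1.79, with 21 differences below 0 and 1 above.

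The signalling steps above IRF3, IRF5 and IRF7 showed no called gene of 22 tested in either state. Tlr7, the endosomal RNA sensor that signals through IRF7, had 324 and 337 normalized counts in unstimulated WT and 973 and 423 in Stim1/2-deficient libraries (log2 fold change 0.96, limma adjusted p = 0.154), and Ddx58 (RIG-I) 1031 and 1018 against 2031 and 1473 (log2 fold change 0.76, limma adjusted p = 0.120). Stim1/2-deficient replicate 1, the higher for both genes, had the largest macrophage and B cell marker sums. The part of those cells in these differences was not tested. Of 12 interferon receptor and JAK-STAT genes none was called in either state. In stimulated cells 11 of the 12 log2 differences were above 0, with a median of 0.56 against 0.02 over all genes. Stat2, which forms ISGF3 with IRF9, differed by 0.85 on the log2 scale there (limma adjusted p = 0.0875) and by 0.34 in unstimulated cells.

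Interferon-responsive genes, the targets of ISGF3 and IRF7, had 1 called lower (Eif2ak2) and 1 higher (Oas2) of 24 in unstimulated cells (median 0.19) and 0 lower and 4 higher in stimulated cells (median 0.94, 23 of 24 above 0). The 4 were Ifit1, Ifit3, Oasl2 and Rtp4, of which the last 3, like Eif2ak2, were named after their values were seen. Ifit1, which binds viral RNA, had 106 and 109 normalized counts in stimulated WT and 536 and 845 in Stim1/2-deficient libraries (log2 fold change 2.63, limma adjusted p = 0.0313). Without Stim1/2-deficient replicate 1 more genes of this list, and of all tested genes, were called in stimulated cells (list median 1.22). The unstimulated Oas2 call was lost without Stim1/2-deficient replicate 1, the library with the most macrophage and B cell transcripts (log2 difference 2.05, list median 0.01). The Eif2ak2 call was lost without replicate 2 (log2 difference -0.63), and both were lost without either WT library. Of 14 antigen presentation genes linked to IRF1, 0 were called in unstimulated cells and 1, Gbp2 (a guanylate-binding protein, named after its values were seen), was called higher in stimulated cells. Among 10 cofactors and turnover factors of the family, Ddb1 was called lower in unstimulated cells (from 4747 and 4130.2 to 1818 and 2702 normalized counts, limma adjusted p = 0.0353). It is part of the cereblon ubiquitin ligase that can degrade Ikaros factors when bound by drugs, and no other gene of the list was called in either state. Without Stim1/2-deficient replicate 1 Ddb1 was not called (log2 difference -0.71, limma adjusted p = 0.0632), nor without either WT library. Of 13 immediate activation genes 0 were called in unstimulated cells and 1, Cd69 (named in the same way), was called higher in stimulated cells.

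**Figure D5:**
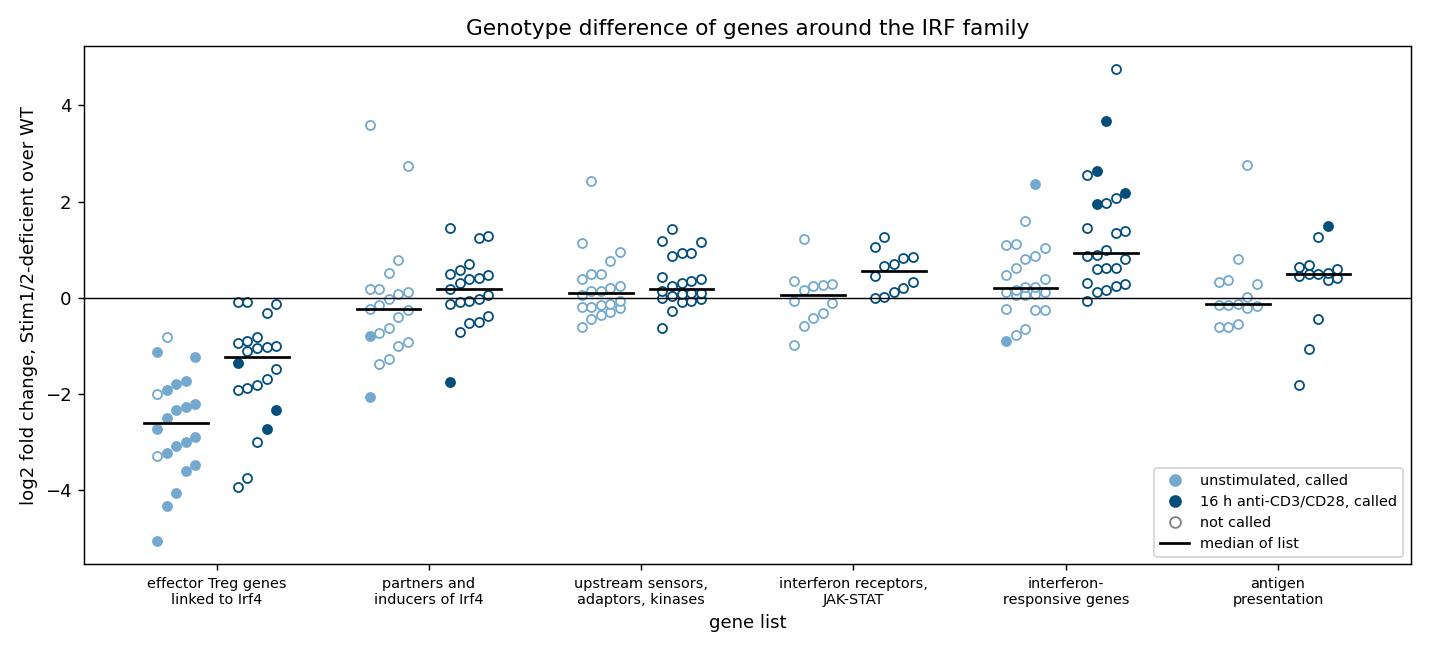
Log2 fold change, Stim1/2-deficient over WT (y axis), of the tested genes of 6 lists (x axis), in unstimulated and stimulated cells, with 1 point per gene, filled if called, and the list median as a line. The effector list lies below 0 in both states (medians -2.62 and -1.24), and the interferon-responsive list has a median of 0.19 in unstimulated and 0.94 in stimulated cells.

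The genes whose pattern over the 8 libraries was most like each member were named by Pearson's r of log2 values among the 10989 genes that averaged 50 normalized counts or more, as a description over libraries that share 4 groups and lanes. For Irf4 they were Cops5 (r = 0.996), Psmb5, Prdx1, Metap1 and Psmc3ip, and for Irf8 Eif2b3 (r = 0.997), Wdr12, Lta, Ywhag and Tbkbp1. Irf7 was most like Ndrg3 (r = 0.984), Cyp2d22, Tspan9, Gm8369 and Gm43915. The interferon-inducible genes Oas3 (r = 0.965) and Ifi203 (r = 0.951) were among the 5 nearest to Irf2, with Tmem229b, Mutyh and Xrn1, and Adar (r = 0.970) was nearest to Irf3, before Rab6b, Chrnb2, Gm43254 and Adamtsl4. Irf9 was most like Pink1 (r = 0.970), Fbxw7, Leng8, Bicdl1 and Ifngr2, and Irf1 like Tldc2 (r = 0.952), Mapk9, AC164623.1, Zfp281 and Mfsd4a. Irf5 was most like the B cell gene Fcrl1 (r = 0.948), which was likewise higher in replicate 1 than in replicate 2 of 3 groups, followed by Sowahc, Gas7, Plek and Pmm2.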

How the data were processed

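Treg cell RNA was sequenced as single reads, and 8 libraries in 4 groups were analysed as labelled. Per gene, the authors deposited a signal: its reads over 1 size factor per library. Whole reads were recovered from 100% of values (tolerance 0.02 normalized counts). The study's methods and the submitters' processing notes differ on the aligner (Bowtie with duplicates removed, or STAR 2.7), the build (NCBIM37 or mm10) and the library kit, whose strandedness is therefore unknown, so that reads of antisense or overlapping genes may be included. The model was limma 3.58.1 (trend, R 4.3.3) on log2(value + 1) over all 4 groups, run on genes averaging 10 or more. Contrasts were 2-sided with Benjamini-Hochberg adjustment within a contrast. Calls needed both an adjusted p below 0.05 and a change above 1.5-fold. Named list genes are at most 4 per list, those with the largest unstimulated genotype difference, plus Batf, Prdm1 and Stat2, and some genes of this rule are not reported here. Alternatives were other pseudocounts, filters and scalings, edgeR 4.0.16, DESeq2 1.42.0, a replicate block, fits to 4 libraries and each library left out. Scripts were tested on simulated data. The members and lists were chosen with earlier results of these data known. Replicates are numbered samples of pooled mice that no source ties to separate experiments, so that p-values measure only the spread between these samples.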

Additional observations from a re-analysis of the deposited data

How the results depend on the processing

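The unstimulated Irf4 genotype difference was called in 12 of 14 alternatives (log2 fold change -2.03 to -1.68), and its range with each library left out was -2.03 to -1.77, not called without WT replicate 3 (-1.89) or 4 (-1.91). With a library left out, its group is assumed to vary like the others. The replicates did not vary alike: the chi-square per degree of freedom of their reads was 10.4 in unstimulated and 12.5 in stimulated WT cells. In Stim1/2-deficient cells it was 77.4 unstimulated and 36.6 stimulated. The stimulated difference was called in 0 of 15 and ran from -0.85 to 0.12 with a library left out. The Irf4 interaction was called by DESeq2 alone (1.60). The Irf4 and Irf8 rises with stimulation were called in every alternative run. Irf7 in stimulated cells was called in 5 of 15, and its WT fall in 9 of 14, the exceptions being equal totals and each of the 4 libraries left out.

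Numbers of genes called depended on the choice, and the cause was not tested. In stimulated cells 42 genes were called for genotype, against 525 by DESeq2, 1 by edgeR, 82 with a mean of at least 100, 1 in the 4 libraries of the contrast, 1 without a filter, 8 and 74 with pseudocounts of 0.1 and 5, 202 with quantile normalization, 1936 at the unadjusted p and 0 to 762 with a library left out (0 without Stim1/2-deficient replicate 2 or WT replicate 1, and 1 without WT replicate 2). In unstimulated cells 730 were called, against 1321 by DESeq2, 484 by edgeR, 338 in the 4 libraries, 362 without a filter, 3043 at the unadjusted p and 8 to 1298 with a library left out (8 without WT replicate 3, 23 without WT replicate 4). The interaction gave 0, against 47 by DESeq2, 1247 at the unadjusted p and 0 to 196 with a library left out. Stimulation gave 3593 in WT cells, 5414 at the unadjusted p and 971 to 1262 with a library left out, and 3852 in Stim1/2-deficient cells, 1752 in the 4 libraries. Rescaling to equal totals changed the WT split from 1580 higher and 2013 lower to 4261 and 975, and the Stim1/2-deficient split from 1997 and 1855 to 3792 and 1077. For genotype in unstimulated cells the split went from 213 higher and 517 lower to 241 and 353 with equal totals and 286 and 332 with equal upper quartiles.

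The replicate block used numbers 1 and 2, which the labels do not tie to a shared source (correlation of deviations 0.17 between stimulated genotypes and 0.26 between Stim1/2-deficient states). With the replicate block, 88 genes were called for genotype in stimulated cells, Irf4 had -0.37, and Irf1 was called for stimulation in Stim1/2-deficient cells (0.64, limma adjusted p = 0.0285). The block changed no other member's call. That Irf1 difference was also called with equal totals (1.03), with quantile normalization (0.93) and without unstimulated replicate 2 (1.19), so in 4 of 15 alternatives with the block, and 1 alternative each called Irf2 for stimulation in Stim1/2-deficient cells and the Irf1 interaction. Fits of listed genes without single libraries were chosen after seeing the data. Reads were fewest for Irf5 (35 to 180 a library, standard error 0.60), and the part of depth in that error was not tested.

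Members that were not called changed sign in some alternatives. With equal totals the log2 stimulation difference became 0.23 for Irf1 and 0.0568 for Irf2 in WT cells, and 0.37 for Irf5, 0.0343 for Irf7 and 0.18 for Irf9 in Stim1/2-deficient cells. The Irf3 interaction became -0.0706 with equal totals, -0.0943 with equal upper quartiles and -0.0263 with quantile normalization, which also gave 0.063 for Irf1 and -0.0939 for Irf5 (stimulation in WT cells) and 0.0247 for the Irf5 interaction. edgeR gave 0.000970 for the unstimulated Irf5 genotype difference. With each library left out, the unstimulated genotype difference ran from -0.52 to 0.58 for Irf1, -0.28 to 0.48 for Irf2, -0.92 to 0.53 for Irf5, -0.22 to 0.82 for Irf8 and -0.19 to 0.34 for Irf9. The stimulated one ran from -0.89 to 0.38 for Irf5 and -0.64 to 0.0329 for Irf8. Stimulation in Stim1/2-deficient cells ran from -0.15 to 0.61 for Irf2, -0.11 to 0.60 for Irf3, -0.74 to 0.70 for Irf5 and -0.47 to 0.0561 for Irf9, and in WT cells from -0.56 to 0.65 for Irf5. The interaction ran from -0.30 to 0.42 for Irf3 and -0.78 to 0.66 for Irf5.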
